A study of Mus musculus with 8 samples.

Results

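Cytochrome P450 family 4 (CYP4) enzymes oxidize fatty acids at the carbon farthest from the acid group, the ω position. The genes described here are the CYP4 ω-hydroxylases named for mouse liver, namely *Cyp4a10*, *Cyp4a12a*, *Cyp4a12b*, *Cyp4a14*, *Cyp4a31*, *Cyp4a32*, *Cyp4f13*, *Cyp4f14*, *Cyp4f15* and *Cyp4v3*. An array probe was taken when its transcript accession belonged to 1 of these 10 genes, which gave 12 of 56605 probes and covered 9 of the 22911 genes named on the array. *Cyp4a32* had no probe under its name. RNA of livers from male C57BL/6 mice 10 weeks old was compared between 4 wild-type (*Agpat3* WT) mice and 4 mice lacking *Agpat3* in the whole body (*Agpat3* KO). AGPAT3 is an acyltransferase that places docosahexaenoic acid, a polyunsaturated fatty acid, into phospholipids, and the question put to the arrays was how liver transcripts differ without it. Each mouse had 1 one-color Agilent array. A single slide and scan took all 8 arrays, the WT mice in row 1 and the KO mice in row 2, and the effects of row and of genotype cannot be told apart.

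After ω-hydroxylation, alcohol and aldehyde dehydrogenases turn the new hydroxyl group into a second acid group, and the dicarboxylic acid is shortened in peroxisomes. *Cyp4a10* and *Cyp4a14* are well-known targets of PPARα, the nuclear receptor that liver uses to sense fatty acids in fasting. *Cyp4a12a* is a male-predominant, androgen-dependent gene whose enzyme ω-hydroxylates arachidonic acid. CYP4F enzymes act on leukotrienes, vitamin E and long fatty acids, and *Cyp4v3* is the mouse counterpart of human *CYP4V2*, the gene mutated in Bietti crystalline dystrophy of the retina.

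The values are log2 signals with the 75th percentile of the array set to 0, so a value of 0 is a probe at that percentile, and differences are KO minus WT. Values of single mice are given in the order of replicates 1 to 4. The labels do not say whether WT and KO mice of the same number are pairs. The 75th percentile was between 261.3 and 308.6 intensity units, and 29885 to 31886 probes per array were well above background. Correlations between arrays were 0.988 to 0.996 within a genotype and 0.985 to 0.992 between genotypes. The brighter *Agpat3* probe was between 5.65 and 5.88 (log2) in WT and between -0.58 and 0.02 in KO, as the labels say. Over 11 hepatocyte markers, which include no CYP4 gene, the mean log2 signal of each array was 8.88 to 8.91 in WT and 8.83 to 8.86 in KO. Of 9 kidney markers, 4 were not well above background on any array. Another 4 were bright enough to be tested, with a mean log2 signal of -2.59 to -2.31 in WT and -2.91 to -2.51 in KO.

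No CYP4 gene was called between the genotypes. The call asked for a fold change above 1.5 together with an adjusted p below 0.2 (limma, Benjamini-Hochberg over 29067 tested probes), and 484 probes or 1.67% met it. All 12 CYP4 probes were well above background on all 8 arrays and were tested, and 0 of 9 genes passed. At an unadjusted p under 0.05, which 13.3% of probes met, 1 gene passed, *Cyp4v3*. The log2 fold change was above 0 for 6 genes and below 0 for 3, with a median of 0.16 against -0.03 over 14065 tested genes. Liver RNA of a whole organ cannot tell fewer cells of a type from less RNA per cell.

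**Figure D1:**
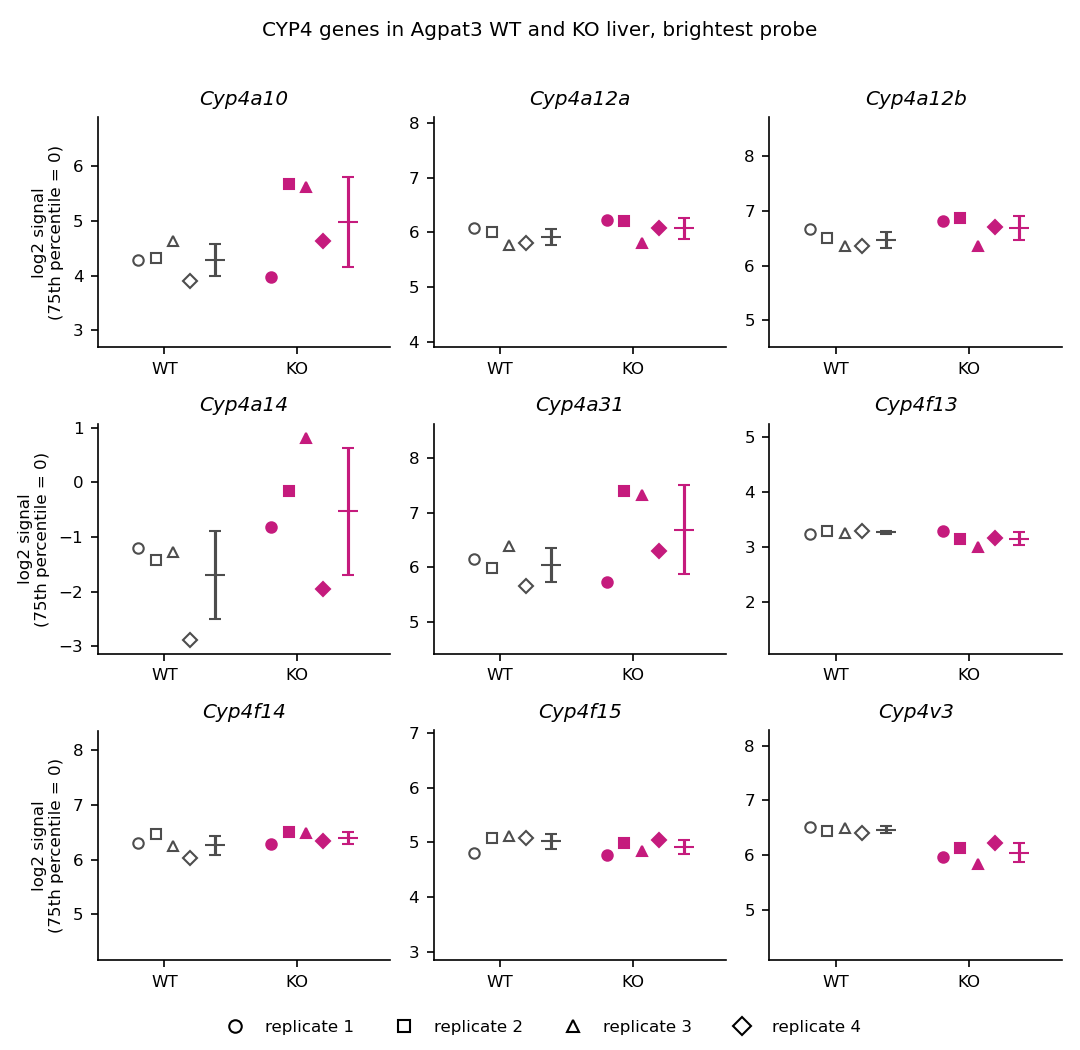
Log2 signal of the 9 measured CYP4 genes in each mouse (vertical axis, 75th percentile of the array = 0, the same span in every panel), with open symbols for WT, filled symbols for KO, a symbol shape for each replicate number, and the mean ± SD (n = 4) beside the points. KO replicates 2 and 3 stand above the other mice for *Cyp4a10* and *Cyp4a31*, and the 4 KO mice lie below the 4 WT mice only for *Cyp4v3*.

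*Cyp4v3* was the one CYP4 gene whose genotypes did not overlap. Its log2 signal was 6.52, 6.44, 6.50 and 6.40 in the WT mice (6.46 ± 0.06, SD, n = 4) and 5.97, 6.13, 5.83 and 6.22 in the KO mice (6.04 ± 0.18, SD, n = 4). Every KO mouse was below every WT mouse, and the KO mice were spread more widely. The log2 fold change was -0.42 (standard error 0.10, 95% confidence interval -0.64 to -0.21), a signal 1.34-fold lower in KO, with an adjusted p of 0.119 from limma. An exact permutation test that ran through the 70 ways to divide the mice gave p = 0.0286 (two-sided, unadjusted), the smallest it can give. Any probe whose genotypes do not overlap gets this p, so it restates the separation and adds nothing to it. The fold change was under the limit of 1.5, so the gene was not called. Among all tested probes, 2.22% were lower in KO at an adjusted p under 0.2 with no minimum fold change, and 5.17% had all KO values below all WT values, so 1 CYP4 gene of 9 meeting either is read against those shares. Leaving out each mouse in turn, the log2 fold change was -0.49 to -0.35, and the adjusted p was 0.11 to 0.274. It was over 0.2 without WT replicate 1 (0.217), 2 (0.228) or 3 (0.274) and without KO replicate 1 (0.231) or 2 (0.204).

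The 250 bases before the annotated start of *Cyp4v3* are printed because it was this gene whose genotypes separated, at chr8:45333164-45333413 of GRCm38.p6 on the minus strand, from RefSeq and in the direction of transcription. The capitals mark a GC box, searched as GGGCGG on both strands after the sequence was seen.
Cyp4v3: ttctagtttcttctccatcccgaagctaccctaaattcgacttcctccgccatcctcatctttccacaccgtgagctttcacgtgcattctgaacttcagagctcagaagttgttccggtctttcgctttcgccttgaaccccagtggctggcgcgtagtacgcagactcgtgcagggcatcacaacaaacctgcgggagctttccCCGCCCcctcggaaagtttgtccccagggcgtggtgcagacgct
The window held 1 GC box, which 32.7% of 32851 windows of this length before mouse genes also hold. *Cyp4f13* and *Cyp4f15*, whose genotypes overlapped, had 1 each as well, and *Cyp4a32* and *Cyp4f14* had 0. RefSeq promoters were at hand for 5 of the 10 genes, *Cyp4a32*, *Cyp4f13*, *Cyp4f14*, *Cyp4f15* and *Cyp4v3*, in 8 windows that also take in 50 bases after the start. The element bound by PPARα is a direct repeat of AGGTCA with 1 base between the copies. With 1 mismatch allowed and both strands read, 0 of the 8 windows held it, against 0.554% of all windows. That says only that these letters are not in these windows.

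*Cyp4a10* is among the PPARα-responsive *Cyp4a* genes, and its enzyme hydroxylates medium-chain fatty acids. The log2 signal of its brightest probe was 4.28, 4.32, 4.63 and 3.90 in WT and 3.97, 5.67, 5.62 and 4.62 in KO. KO replicates 2 and 3 were above all other mice, whereas KO replicates 1 and 4 were inside the WT range. The log2 fold change was 0.69 (standard error 0.38, 95% confidence interval -0.17 to 1.55), with an adjusted p of 0.485 from limma. The exact permutation test gave p = 0.229. Without KO replicate 2 the log2 fold change was 0.46, and without KO replicate 1 it was 1.02. The other probes of *Cyp4a10* gave 0.64 and 0.76, and on each of them KO replicates 1 and 4 again lay inside the WT range.

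*Cyp4a31* is a close relative of *Cyp4a10*, and its brighter probe followed the same order of mice at the extremes. Its log2 signal was 6.16, 5.98, 6.39 and 5.65 in WT and 5.73, 7.39, 7.33 and 6.30 in KO. The same pair of KO mice was high and the other pair was within the WT range. The log2 fold change was 0.64 (standard error 0.37) with an adjusted p of 0.52 from limma. The dimmer probe, designed to another transcript, had 0.86, 0.65, 1.18 and 0.03 in WT and 0.69, 2.33, 2.21 and 1.02 in KO. Its log2 fold change was 0.88 (standard error 0.41) and an adjusted p of 0.407 from limma. The groups overlapped on both probes. On the brighter probe the log2 fold change was 0.41 without KO replicate 2, 0.42 without KO replicate 3 and 0.96 without KO replicate 1.

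*Cyp4a14*, another gene strongly induced by PPARα agonists, had the widest spread among the CYP4 genes. Its log2 signal was -1.19, -1.43, -1.28 and -2.88 in WT and -0.82, -0.17, 0.81 and -1.95 in KO. KO replicates 1, 2 and 3 were above all WT mice, KO replicate 4 was below WT replicates 1, 2 and 3, and WT replicate 4 was far below every other mouse. The signal thus spanned 12.9-fold over the 8 mice. The log2 fold change was 1.17 (standard error 0.60, 95% confidence interval -0.21 to 2.54), a 2.24-fold higher mean in KO, with an adjusted p of 0.457 from limma and an exact permutation p of 0.2. In this fit, which did not pair the mice, the mean crossed the fold limit but not the limit on p. With the replicate number as a block the gene was called (standard error 0.28, adjusted p = 0.18 from limma), but the labels do not say that the numbers pair the mice. Without KO replicate 3, the highest mouse, the log2 fold change was 0.72, without WT replicate 4 it was 0.77, and without KO replicate 4 it was 1.64.

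The spread between mice was wide for these *Cyp4a* genes. The pooled SD within genotypes was 0.62 for *Cyp4a10*, 0.62 for *Cyp4a31* and 0.99 for *Cyp4a14*, at percentiles 97.4, 97.4 and 99.5 of all tested probes. The pooled SD of *Cyp4f13* was at percentile 15.9, and those of *Cyp4f14* and *Cyp4f15* were at 43.0 and 36.5, nearer the middle of the array. *Cyp4a12a* and *Cyp4a12b* were at 50.6 and 56.3. In KO the highest mouse was 3.25-fold above the lowest for *Cyp4a10* and 6.75-fold for *Cyp4a14*, against 1.22-fold for *Cyp4f13* and 1.16-fold for *Cyp4f14*. These are descriptions of 4 mice each, and no difference in spread was tested.

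**Figure D2:**
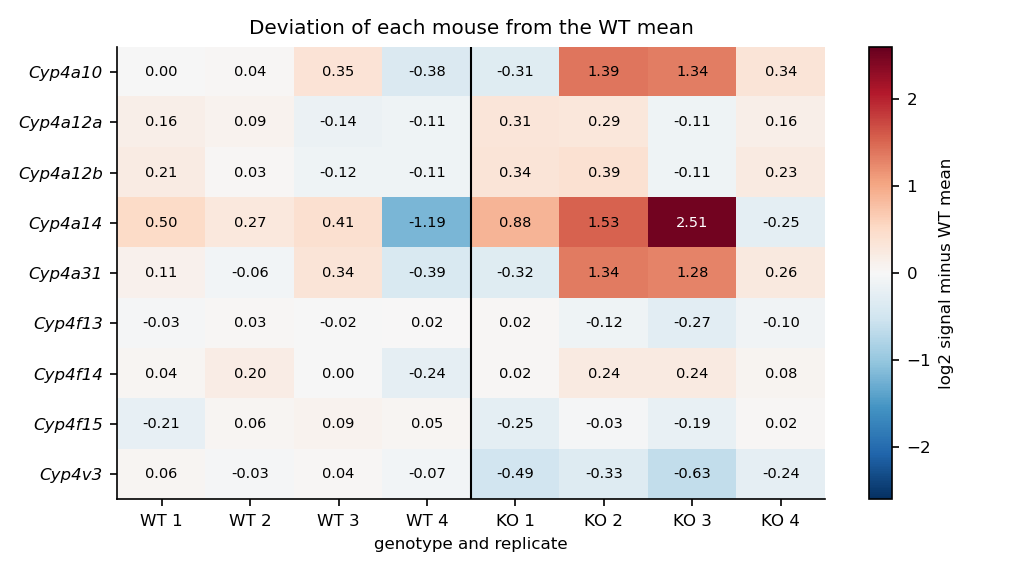
Log2 signal of each CYP4 gene (rows, brightest probe) in each mouse (columns, genotype and replicate number) minus the WT mean of that gene, printed in the cell and shown from blue (below) to red (above). Red cells in KO replicates 2 and 3 mark *Cyp4a10*, *Cyp4a14* and *Cyp4a31*, and the *Cyp4v3* row is below the WT mean in all 4 KO mice.

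*Cyp4a12a* and *Cyp4a12b*, neighboring near-copies expressed mostly in males, differed little. *Cyp4a12a* had 6.08, 6.01, 5.77 and 5.81 in WT and 6.23, 6.21, 5.81 and 6.07 in KO. *Cyp4a12b* had 6.68, 6.50, 6.35 and 6.36 in WT and 6.81, 6.86, 6.37 and 6.70 in KO. The genotypes overlapped for both. The log2 fold changes were 0.16 (95% confidence interval -0.11 to 0.43) and 0.21 (-0.08 to 0.50), with adjusted p of 0.609 and 0.525 from limma, so these intervals leave out a change of either gene past the fold limit.

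The *Cyp4f* genes had narrow intervals around 0. *Cyp4f14*, whose enzyme ω-hydroxylates leukotriene B4 and vitamin E, had 6.30, 6.46, 6.26 and 6.02 in WT and 6.28, 6.50, 6.50 and 6.34 in KO. *Cyp4f13* had 3.24, 3.30, 3.25 and 3.29 in WT and 3.29, 3.15, 3.00 and 3.17 in KO. The WT mice of *Cyp4f13* lay close together, 3 KO mice were below them and KO replicate 1 was among them. *Cyp4f15* had 4.81, 5.08, 5.11 and 5.07 in WT and 4.77, 4.99, 4.83 and 5.04 in KO, with overlapping groups. The log2 fold changes were 0.14 (95% confidence interval -0.10 to 0.39), -0.12 (-0.29 to 0.06) and -0.11 (-0.33 to 0.11) in that order, with adjusted p between 0.563 and 0.683 from limma.

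**Figure D3:**
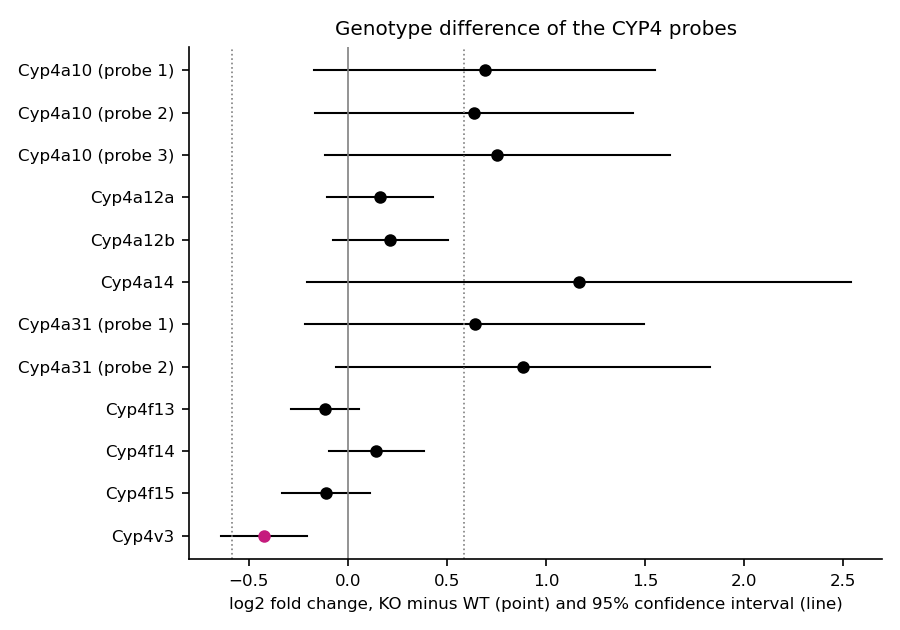
Log2 fold change of each CYP4 probe (horizontal axis, KO minus WT, n = 4 each) as a point with its 95% confidence interval from limma, and dotted lines at a fold change of 1.5 in either direction. The intervals of *Cyp4a10*, *Cyp4a14* and *Cyp4a31* are wide and include 0, those of the *Cyp4f* and *Cyp4a12* probes are narrow and include 0, and that of *Cyp4v3* (magenta, genotypes not overlapping) lies below 0.

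The CYP4 genes did not vary as 1 block across mice. Among 36 pairs of genes over 8 mice, *Cyp4a10* and *Cyp4a31* were the most alike (Pearson r = 0.995, Spearman rho = 0.976, adjusted exact permutation p = 0.00626 and 0.0143). Without KO replicates 2 and 3, which stand apart, r was 0.969 over 6 mice (exact permutation p = 0.00972). The 5 probes of these genes gave r between 0.975 and 0.998 in all 10 pairs, and whether probes of such related genes bind each other's RNA was not tested. *Cyp4a12a* and *Cyp4a12b* were alike as well (r = 0.976, rho = 0.952, adjusted exact permutation p = 0.0067 and 0.0205), with r = 0.962 without the 2 mice farthest from the median, WT replicates 3 and 4. The same limit of near-identical sequences holds for them.

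Other pairs were less alike. *Cyp4a10* and *Cyp4a14* had r = 0.778 and rho = 0.571 (adjusted exact permutation p = 0.129 for r), and r fell to 0.218 without KO replicates 2 and 3. *Cyp4f13* ran opposite to *Cyp4a10* (r = -0.861, rho = -0.714, adjusted exact permutation p = 0.0273 and 0.346), and without the same pair of mice r kept its sign at -0.697 (exact permutation p = 0.136). With *Cyp4a31* it had r = -0.861 and rho = -0.81 (adjusted exact permutation p = 0.0273 and 0.262), and -0.706 without that pair (exact permutation p = 0.11). *Cyp4a10* and *Cyp4a12a* had r = -0.013, and of the pair of KO mice high for *Cyp4a10*, replicate 2 had a *Cyp4a12a* signal above all WT mice and replicate 3 had one inside the WT range.

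The genes most like 3 of the CYP4 genes were taken over 14058 tested genes and 8 mice, as a description. Genes of the same subfamily, *Cyp4a* or *Cyp4f*, were left out of each ranking. For *Cyp4a10* they were *Cd55b* (r = 0.975), *Arf4* (0.965), *Zwilch* (0.944), *Mad2l1* (0.940) and *Cyp26a1* (0.933). For *Cyp4a14* they were *B4galt7* (0.994), *Mrps12* (0.985), *Cct3* (0.980), *Ostc* (0.960) and *Ubxn4* (0.955). For *Cyp4f14* they were *Cyp2c29* (0.967), *Ccdc189* (0.947), *Dok4* (0.943), *Cyp2c68* (0.940) and *Drg2* (0.935). The lists share no gene, and no test was run on them.

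No further CYP4 gene of the mouse was called either. Of 13 listed, 12 had a probe and 5 were tested, and 5 were not well above background on any array. All 5 tested genes had log2 fold changes below 0 and 0 were called, against 1.76% of all tested genes. *Cyp4b1* was at -0.02, *Cyp4f16* at -0.08, *Cyp4f17* at -0.11, *Cyp4f18*, the leukotriene hydroxylase of neutrophils, at -0.32, and *Cyp4f39* at -0.41. Their adjusted p were between 0.396 and 0.947 from limma. *Cyp4f39* was well above background on 4 WT and 2 KO arrays. Of 11 tested leukocyte and Kupffer cell markers, 10 were also below 0, with a mean log2 signal of 2.00 to 2.55 in WT and 1.59 to 2.34 in KO, and 0 were called, and their part in the value of *Cyp4f18* was not tested.

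The enzymes that work with CYP4 in ω-oxidation had differences mostly within the fold limit. Of 20 tested partners 0 were called, against 1.76% of all tested genes. The log2 fold change was above 0 for 15 of them, and the median was 0.07. *Adh1*, an alcohol dehydrogenase, had 0.28 (standard error 0.07, adjusted p = 0.176 from limma). *Aldh3a2*, the fatty aldehyde dehydrogenase, had 0.22 (standard error 0.06, adjusted p = 0.198 from limma), and *Cyb5r3* had 0.25 (standard error 0.08, adjusted p = 0.259 from limma). These genes, named after their values were seen, were higher in every KO mouse than in every WT mouse, below the fold limit. The share of all tested probes higher in every KO mouse was not counted. The separation of these genes, and of *Acot3* below, is therefore not read as a trait of the list. *Crot*, the peroxisomal carnitine octanoyltransferase, was lower in every KO mouse (-0.33, standard error 0.08, adjusted p = 0.136 from limma), as were 5.17% of all tested probes. *Acot3*, a peroxisomal acyl-CoA thioesterase, had 1.29 with an adjusted p of 0.201 from limma, just outside the limit, and was also higher in every KO mouse. *Por*, the reductase that feeds electrons to all these P450 enzymes, had -0.09.

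PPARα targets other than CYP4 had 1 gene called of 45 tested, against 1.76% of all tested genes. *Abcd2*, a peroxisomal transporter of very long fatty acids, was called higher in KO (1.88, standard error 0.40, adjusted p = 0.106 from limma), and was well above background on 2 WT and 4 KO arrays. The call was lost without WT replicate 2 (adjusted p = 0.207) or 3 (0.239), and under normexp background correction the log2 fold change was 0.58. The median of the list was 0.05, with 28 genes above 0 and 17 below. *Ehhadh*, the peroxisomal bifunctional enzyme of dicarboxylic acid oxidation, had 0.34 and *Cpt1a*, the carnitine palmitoyltransferase of mitochondrial entry, had -0.14, neither of them called. Larger differences also went uncalled, with *Acot3* at 1.29 and *Cd36* at 1.01 (adjusted p = 0.201 and 0.22 from limma). The lowest of the list was *Crot* at -0.33. Over the 8 mice, 71.1% of these 45 genes correlated positively with *Cyp4a10* (median r 0.23), against 49.5% of 14058 genes, with *Ehhadh* at 0.844 and *Crot* at -0.661. The share was 60.0% for *Cyp4a14* (median r 0.08), against 45.6% of all genes, and 51.1% for *Cyp4f14* (median r 0.05), against 45.4%. These are descriptions, and genes are not independent replicates.

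**Figure D4:**
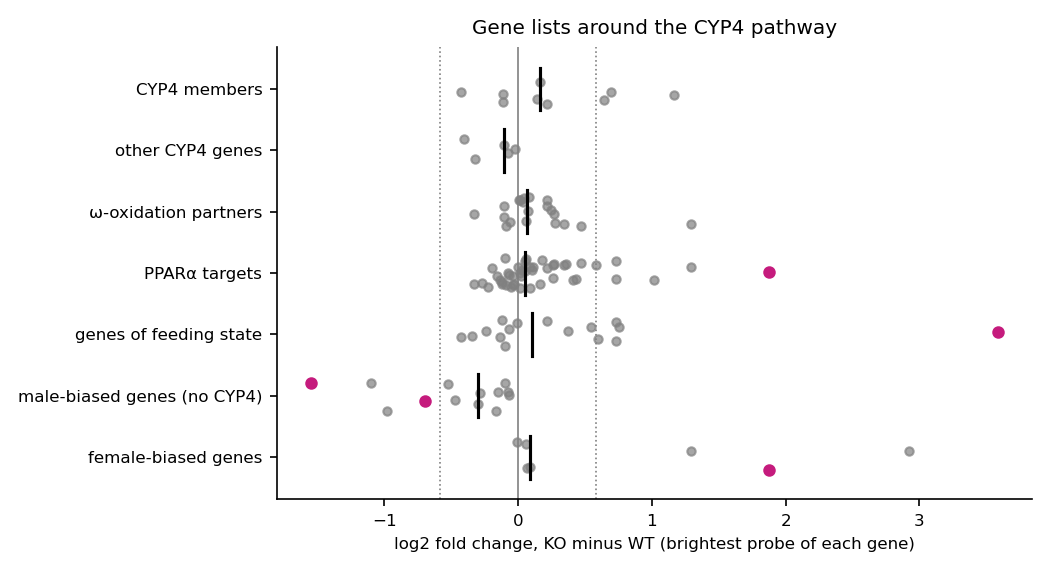
Log2 fold change (horizontal axis, KO minus WT, brightest probe) of each tested gene in the CYP4 list and in 6 gene lists around it, with called genes in magenta, a black bar at the median and dotted lines at a fold change of 1.5. No CYP4 gene is called, and all 13 male-biased genes other than CYP4 lie below 0.

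Among regulators, 2 of 18 tested were called, both higher in KO, against 1.76% of all tested genes called in either direction. *Srebf1*, the fatty acid synthesis regulator, had 0.77 (standard error 0.21, adjusted p = 0.168 from limma), and *Esr1*, the estrogen receptor, had 0.60 (standard error 0.15, adjusted p = 0.143 from limma). The call of *Srebf1* was lost without any 1 of the 8 mice (adjusted p 0.205 to 0.284), and that of *Esr1* without any except WT replicate 4 or KO replicate 2. *Ppara* itself had 5.46, 5.66, 6.07 and 6.00 in WT and 5.68, 5.80, 5.55 and 5.82 in KO, a log2 fold change of -0.09 with overlapping groups. *Rxra*, its partner receptor, had -0.16 with an adjusted p of 0.356 from limma.

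*Cyp4a12a* and *Cyp4a12b* were apart in sign from the other male-biased liver genes. Of those 13 others, all had log2 fold changes below 0, with a median of -0.30, and 2 were called lower (1.76% of all tested genes were called). *Cyp7b1*, an oxysterol hydroxylase, had -1.55 (standard error 0.43, adjusted p = 0.188 from limma) and *Selenbp2* had -0.70 (standard error 0.20, adjusted p = 0.191 from limma). The call of *Cyp7b1* was lost without any single mouse except KO replicate 3, and that of *Selenbp2* without any except WT replicate 4. KO replicate 3, which was high for the *Cyp4a10* group, was the lowest mouse for *Cyp7b1* (4.04 against 5.82 to 7.33 in the others) and *Elovl3* (3.96 against 5.01 to 6.24) and the highest for the female-biased *Cyp2b9* (4.21 against -3.47 to 0.81). It was not the lowest for the male-biased *Cspg5* and *Serpina1e*, but was for the rest of those 13 genes. Among tested female-biased genes it was the highest for all but *Cyp3a41a*, *Cyp3a16* and *Fmo2*. *Cyp4a12a* in that mouse, at 5.81, was the lowest of the KO mice and inside the WT range. Of 7 tested female-biased genes 1 was called, *Abcd2* again, against the same 1.76%, and *Cyp2b9* had 2.92 (standard error 0.99, adjusted p = 0.263 from limma). Whether the *Cyp4a12* genes differ from the male-biased list in their response was not tested.

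Feeding and time of day move many *Cyp4a* genes, so genes of both were read as well. Of 16 tested genes of feeding state, 1 was called against 1.76% of all tested genes, *Pnpla3*, a lipid droplet protein gene switched on by feeding (adjusted p = 0.0026 from limma). It was well above background on 1 WT and 4 KO arrays, so the size of its difference is not well set, with a log2 fold change of 3.59 that became 1.25 with normexp background correction and 4.39 as the mean of its probes. Of 16 tested clock genes 0 were called, with a median of 0.04 and *Per3* at 0.70 and *Ciart* at -0.57 as the ends. The part of either in the *Cyp4a* values of KO replicates 2 and 3 was not tested.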

How the data were processed

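Agilent arrays with 1 dye were hybridized with RNA of 8 livers, 4 of *Agpat3* WT and 4 of *Agpat3* KO mice. For each array the authors deposited the spot intensity from Feature Extraction 10.7.1.1, background-subtracted on a linear scale, and a table of log2 values. Those log2 values are close to log2 of these intensities minus the 75th percentile of the array. With outlier spots kept, they differed from the values computed here by a median of 0.00539 and at most 0.539. The build in the headers is mm9. Genes were named from RefSeq (GRCm38.p6) by transcript accession for 32994 of 56605 probes.

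Control and outlier spots (86 to 150 outlier spots per array, 0 saturated) were dropped. The 75th percentile over probes was subtracted from the log2 processed signal, and replicate spots were averaged. A probe was tested if all 4 arrays of WT or of KO had it well above background, which 29067 did, using limma 3.58.1 (lmFit, eBayes; R 4.3.3). A gene was read from its brightest tested probe. Single values were also tested by an exact permutation test. Mice of the same replicate number were not taken as pairs in the main fit. Nothing in the labels says that a number marks a shared litter or day. Their deviations from the genotype means correlated at 0.331, -0.108, 0.104 and 0.319 for replicates 1 to 4. By these deviations WT replicates 1, 3 and 4 were most like the KO replicate of the same number, and WT replicate 2 was most like KO replicate 3. Whether the numbers pair the mice is thus not known. Arrays have no sequencing depth, so their number limits the precision.

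The CYP4 genes and the gene lists were chosen with earlier results of these data known. Named were all CYP4 genes, *Agpat3*, the called genes of each list or, with none called, the ends of the list, and the 5 genes most like *Cyp4a10*, *Cyp4a14* and *Cyp4f14*. *Adh1*, *Aldh3a2*, *Cyb5r3*, *Por*, *Ppara*, *Rxra*, *Ehhadh*, *Cpt1a*, *Cd36*, *Elovl3*, *Cspg5*, *Serpina1e*, *Cyp2b9*, *Cyp3a41a*, *Cyp3a16* and *Fmo2* were named after their values were seen. Some single genes of the lists are not reported here. The test was tried on simulated arrays of 29067 probes, of which 200 had a log2 change of 1.5, and 92.5% of those were recovered and 9.31% of the calls were false. The 200 were picked at random from all tested probes. Recovery was not taken apart for probes spread as widely as those of *Cyp4a10*, *Cyp4a14* and *Cyp4a31*, or for smaller changes, so 92.5% does not describe these genes. Alternatives were normexp with an offset of 50 on the median spot signal, the deposited log2 values, normalization by quantiles or by the median, other filters and thresholds, outlier spots kept, a trend and robust eBayes, a replicate block, the mean of a gene's probes, and each array left out.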

Additional observations from a re-analysis of the deposited data

Results flagged for a closer look

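Of 24 groups of 4 mice, 1 for each CYP4 probe and genotype, 2 held a mouse far from the other 3 of its genotype, and chance alone marks about 1 group in 20. *Cyp4a14* had a log2 signal of -2.88 in WT replicate 4, and the other WT mice had -1.43 to -1.19. *Cyp4f15* had 4.81 in WT replicate 1, and the other WT mice had 5.07 to 5.11.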

How the results depend on the processing

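Of 162 alternative values of the 9 CYP4 genes, 161 kept the direction and the side of the threshold, and 0 reversed. The exception was *Cyp4a14*, which was called with the replicate block (1.17, adjusted p = 0.18 from limma), so that 1 CYP4 gene was called there. With no minimum fold change 1 CYP4 gene was called, *Cyp4v3*, whose adjusted p ranged from 0.0678 to 0.304 over the alternatives. The number of probes called over the array, 484, became 117 at an adjusted p under 0.05, 160 at a fold change over 2, 775 at an unadjusted p under 0.05, 1202 with no minimum fold change, 245 with normexp and 253 with no filter, and was 257 (without WT replicate 3) to 645 (without WT replicate 4) with 1 array left out, 306 without WT replicate 2 and 291 without KO replicate 2. Of these calls 56.4% were higher in KO, and 73.5% with normexp, 48.5% with median normalization and 48.2% with no filter, so that the majority turned to lower in KO under the last pair of settings. The 1 PPARα target called became 0 at an adjusted p under 0.05, with no filter and with the filter on all 8 arrays, 2 with no minimum fold change, normexp, quantile normalization, trend and robust eBayes and the replicate block, and 4 at an unadjusted p, and was 0 to 3 with 1 array left out (0 without WT replicate 2 or 3, 3 without WT replicate 4, 2 without KO replicate 3). With 2 mismatches allowed in place of 1, 0 promoter windows of the CYP4 genes held the PPARα element, against 3.86% of all windows. The cause of these changes was not tested.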
